A study of Homo sapiens with 4 samples.

Results

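Of the 34545 gene rows counted in a colorectal cancer line treated with creatine, 549 carried a ZNF symbol, the name stem given to human genes with predicted zinc finger domains. Those whose mean over all 4 libraries reached 10 CPM (a gene's count scaled to the total of its library) were taken as expressed, which left 233 ZNF genes. The members were chosen by this mean level, so their levels are given as a description. Just inside the minimum lay ZNF432 at 10.02 CPM, ZNF785 at 10.18 CPM and ZNF714 at 10.18 CPM, and just outside it ZNF222 at 9.97 CPM, ZNF221 at 9.85 CPM and ZNF322 at 9.60 CPM. Of the 316 ZNF rows under the minimum, 36 had no count in any library.

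The study compared 2 libraries labelled Ctrl with 2 labelled Creatine, all from DLD-1 cells of WT genotype. DLD-1 is an established line derived from a colorectal carcinoma. Creatine is a compound that cells import and that stores high-energy phosphate once it is phosphorylated. The design text places its use in the study of ferroptosis, a cell death driven by iron and lipid peroxidation. The dose of creatine and the time of treatment are not given in the labels. Whether each library had a culture of its own is not in the labels. The p-values below therefore reflect variation between 4 libraries, part of which may be technical.

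Total counts lay between 48249693 and 59860043 per library. No library was a copy of another: comparing counts gave a chi-square over its degrees of freedom of 15.96 between the controls, 8.87 between the creatine libraries and 34.9 to 55.5 across groups. The label was checked against markers. Of 15 colon epithelial markers, 13 were under 1 CPM in every library, among them EPCAM with 2, 0, 0 and 0 reads and CDX2 with 8, 0, 0 and 0 reads, and only KRT8 and KRT18 exceeded 10 CPM. Of 14 mesenchymal markers, 8 exceeded 10 CPM, with VIM between 2329 and 2687 CPM. Of 10 immune and endothelial markers, 9 were in the table and 6 of these were under 1 CPM in every library, PTPRC, CDH5 and KDR among them. The 1 over 10 CPM was TIE1, an endothelial receptor, with 369 and 382 CPM in the controls and 310 and 314 CPM with creatine, without overlap (log2 fold change -0.27, edgeR adjusted p = 0.0052). With an offset for transcript GC content and length its log2 fold change was -0.02 (edgeR adjusted p = 0.926). The call was also lost without creatine library 1 (-0.26, edgeR adjusted p = 0.0715), and the part of TIE1-expressing cells in the results was not tested. The defining epithelial markers of the labelled cell type were therefore at or near 0 in all 4 libraries, and the cells are called by their label here.

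A C2H2 zinc finger is a short fold in which a pair of cysteines and a pair of histidines hold a zinc ion, and a row of such fingers reads DNA base by base. Most ZNF genes arose by repeated local duplication, above all on chromosome 19. Many carry a KRAB box, which binds TRIM28 (KAP1), a scaffold that brings the H3K9 methyltransferase SETDB1 and HP1 proteins to silence retroelements and other repeats. Members without a KRAB box include activators, partners of chromatin complexes, and proteins that act on RNA, ribosomes or the spindle.

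For 8 members the first finger that is directly followed by the conserved linker is printed here with that linker. It need not be the first finger of the protein. These are shown because the base composition of these repeated domains differed so widely between members that rose and members that fell. Each run is the coding sequence of 1 finger and the conserved linker after it, taken from GENCODE 29 on GRCh38, with the codons of the paired cysteines and histidines in capitals. The first 3 genes were higher with creatine, the next 3 lower, and the last 2 are described with the correction for base composition.
ZNF595: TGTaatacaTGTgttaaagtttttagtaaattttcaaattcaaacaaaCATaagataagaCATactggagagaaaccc
ZNF721: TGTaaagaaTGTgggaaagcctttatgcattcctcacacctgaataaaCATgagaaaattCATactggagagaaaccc
ZNF41: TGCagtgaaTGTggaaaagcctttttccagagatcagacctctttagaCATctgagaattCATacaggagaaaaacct
ZNF628: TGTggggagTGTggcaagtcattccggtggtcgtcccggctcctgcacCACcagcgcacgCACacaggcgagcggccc
ZNF672: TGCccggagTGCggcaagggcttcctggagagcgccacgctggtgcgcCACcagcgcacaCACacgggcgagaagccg
ZNF865: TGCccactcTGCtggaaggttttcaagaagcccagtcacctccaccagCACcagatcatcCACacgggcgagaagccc
ZNF664: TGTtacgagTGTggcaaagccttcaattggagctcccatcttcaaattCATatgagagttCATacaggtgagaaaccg
ZNF316: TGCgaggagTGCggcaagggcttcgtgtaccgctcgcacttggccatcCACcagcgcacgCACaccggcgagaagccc
These 8 genes were chosen for display after their values were seen. On GRCh38 the stretches lie at chr4:85943-86020 (ZNF595, plus strand), chr4:443723-443800 (ZNF721, minus), chrX:47448624-47448701 (ZNF41, minus), chr19:55481305-55481382 (ZNF628, plus), chr1:248847959-248848036 (ZNF672, plus), chr19:55614672-55614749 (ZNF865, plus), chr12:124012409-124012486 (ZNF664, plus) and chr7:6652719-6652796 (ZNF316, plus). Their length is the same, 78 bases, and they encode the same fold, yet G and C made up 26.9% of the ZNF595 stretch, 38.5% in ZNF721 and 39.7% in ZNF41, against 69.2% in ZNF628, 71.8% in ZNF672 and 59.0% in ZNF865. The histidine codons of the first 3 genes are CAT and those of the next 3 CAC. The ZNF664 stretch had 43.6% GC and CAT codons. The ZNF316 stretch had 67.9% GC and CAC codons, like the genes that fell, though ZNF316 itself did not fall. In members without a finger followed by this linker, the first finger alone was taken. With these included, 223 members had a stretch. Its median GC content was 39.7% in 30 that rose, 63.8% in 27 that fell and 46.2% in 166 that did not pass the test.

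With creatine, 32 of the 233 expressed ZNF genes rose and 28 fell, while 173 did not pass the test (edgeR quasi-likelihood test, Benjamini-Hochberg adjusted p under 0.05 over all genes tested). The background in the same test was 9.15% of 15302 genes higher and 10.5% lower (19.6% in all), and among genes that also reached 10 CPM it was 14.5% higher and 16.5% lower. The members' shares, 13.73% higher and 12.02% lower, were close to those of comparably expressed genes. The median log2 fold change of the members, creatine over control, was 0.028, with 0.011 for all genes tested, and single members ran from -0.54 to 0.70. None of the 233 changed by 2-fold or more. Both creatine libraries lay above both controls in 92 members and below both in 78, or 39.5% and 33.5% of them. The background was 29.2% of all genes tested above and 28.9% below, and 35.3% above and 35.4% below among genes that reached 10 CPM. Since these are bulk samples, fewer cells expressing a gene and less of its RNA per cell cannot be told apart.

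The members' summed level was nearly the same in every library, at 8284 and 8196 CPM in control libraries 1 and 2 and 8324 and 8445 CPM in creatine libraries 1 and 2. Leaving out a library moved the number of calls, among the members and over all genes tested. The median log2 fold change of the members was then 0.055 without control library 1 and 0.0036 without control library 2. It was 0.019 without creatine library 1 and 0.036 without creatine library 2. Over all genes tested these medians were 0.0099, 0.0088, -0.0022 and -0.0064. Of the 60 calls, 9 passed in all 13 repeated fits that made no correction for base composition. They were ZNF121, ZNF146, ZNF518A and ZNF770, which rose, and ZNF142, ZNF335, ZNF592, ZNF672 and ZNF703, which fell. How many of the 3001 calls over all genes tested passed in every such fit was not counted.

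Direction followed the GC content of the transcript, the share of its bases that are G or C. Of 92 members under 45% GC, 27 rose and 0 fell, with a median log2 fold change of 0.26. Of 53 members at 55% GC or more, 0 rose and 24 fell, with a median of -0.30. At an unadjusted p under 0.05, 1 of the low-GC members was lower and 0 of the high-GC members were higher by edgeR, and DESeq2 and limma-voom made 0 such calls after adjustment. The 88 members between lay near 0, with 5 that rose, 4 that fell and a median of -0.02. Genes outside the family followed the same order. Under 45% GC, 22.7% of all genes tested rose and 0.231% fell, between 45% and 55% GC 3.45% rose and 6.28% fell, and from 55% GC 0.621% rose and 27.5% fell, with medians of 0.20, -0.025 and -0.22. Among genes that reached 10 CPM, 33.7% rose and 0.301% fell under 45% GC, 5.33% rose and 10.3% fell between, and 1.01% rose and 45.3% fell from 55% GC. The members' shares were 29.3% that rose under 45% GC and 45.3% that fell from 55% GC, near those of comparably expressed genes.

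**Figure D1:**
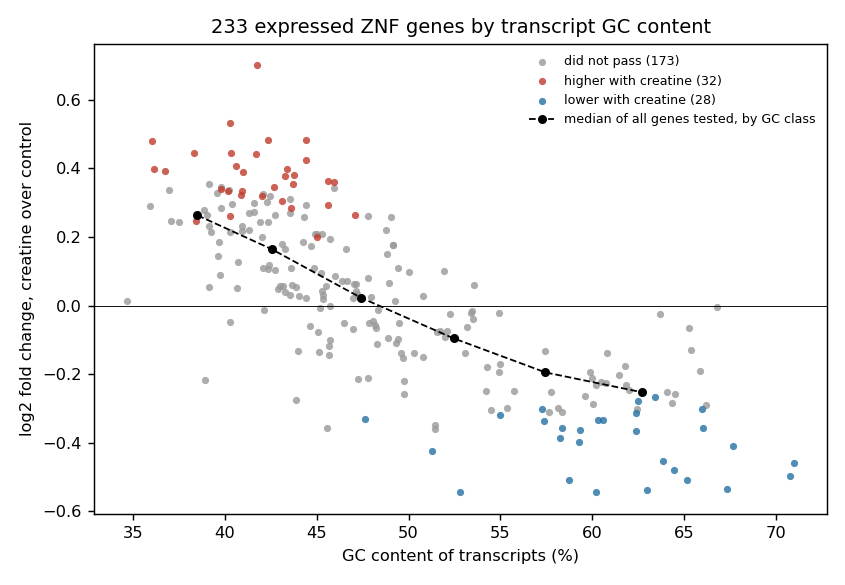
Log2 fold change of each of the 233 expressed ZNF genes, creatine over control (vertical axis), against the GC content of its transcripts in percent (horizontal axis). Red and blue points passed the test as higher (32) or lower (28), grey points did not (173), and the black dashed line is the median of all genes tested in each GC class; the members run from upper left to lower right along that line.

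Across the 233 members the log2 fold change and transcript GC content had a Spearman rho of -0.803, and across 15279 genes tested with a GC value it was -0.534. With the GC content of the coding sequence alone rho was -0.804. These are correlations across genes that share the same 4 libraries, so genes are not independent replicates. Length and the number of fingers had rho values of 0.24 and 0.26 with the log2 fold change, and the mean level had -0.01. Exceptions were present at both ends. ZNF254, a KRAB gene with the lowest GC content of the members at 34.7%, had a log2 fold change of 0.01 ± 0.11 (SE; adjusted p = 0.951), and ZNF316, at 66.8% GC, had -0.00 ± 0.08 (adjusted p = 0.988).

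The gradient was also read library by library, as the deviation of each member from its own mean over the 4 libraries. These deviations cancel out over the 4 libraries of a gene, so they restate the change between groups. Members under 45% GC lay below their own 4-library mean by a median of -0.09 and -0.13 on the log2 scale in control libraries 1 and 2, and above it by 0.13 and 0.12 in creatine libraries 1 and 2. Members at 55% GC or more showed the reverse, with 0.13 and 0.16 in the controls and -0.21 and -0.08 in the creatine libraries. The low-GC members summed to 2861 and 2789 CPM in the controls and 3317 and 3287 CPM with creatine, and the high-GC members to 1834 and 1914 CPM against 1459 and 1613 CPM. The groups did not overlap in either class. Creatine library 1 had the steepest slope among members, at -0.16 log2 units per 10 points of GC, creatine library 2 had -0.09, and the controls had 0.11 and 0.14. Over all genes tested the slopes were 0.08 and 0.13 in the controls and -0.13 and -0.08 with creatine.

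**Figure D2:**
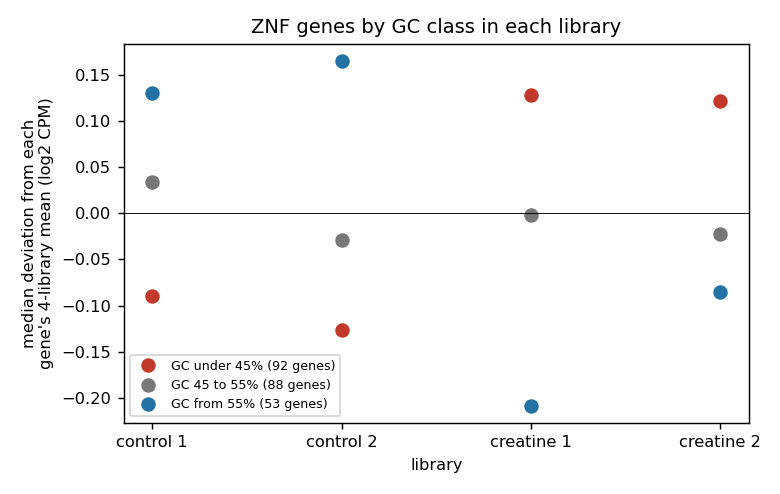
Median deviation of the ZNF genes from their own 4-library mean, in log2 CPM (vertical axis), in each of the 4 libraries (horizontal axis) for 3 classes of transcript GC content. The 92 genes under 45% GC are below 0 in both controls and above 0 in both creatine libraries, and the 53 genes from 55% GC are the mirror image, furthest from 0 in creatine library 1 at -0.21.

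The labels name no batch. The GC slopes separated the libraries in the same way as the treatment, so slope and treatment cannot be told apart in these 4 libraries. The fit was therefore repeated with an offset that removes each library's smooth trend on GC content and gene length, whatever produced it. With this offset 2 members rose and 1 fell, beside 1.29% and 1.08% of all genes tested (2.37% in all), and the median log2 fold change of the members was 0.01. A weaker relation remained among members, with a rho of -0.29, where all genes had -0.01. Low-GC members kept a median of 0.07 and high-GC members one of -0.08.

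ZNF664, of which a finger is printed above, had 108 and 112 CPM in the controls and 131 and 133 CPM with creatine. Its groups did not overlap, and the log2 fold change was 0.26 ± 0.07 (SE; adjusted p = 0.00974), and 0.25 with the offset (adjusted p = 0.0341). With an offset for GC content alone it was 0.21 and did not pass (edgeR adjusted p = 0.139). The call with the GC and length offset was also lost without control library 1 (0.21), creatine library 1 (0.27) or creatine library 2 (0.24). Its transcripts have 47.1% GC, near the middle of the range. The call without the offset did not pass when creatine library 1 was left out (0.27, adjusted p = 0.0712) or creatine library 2 (0.25, adjusted p = 0.0892). ZNF664 lies at chr12:123971845-124015439 on the plus strand, where its exons overlap those of RFLNA and CCDC92, so reads may have been shared.

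ZNF592 is a member of a complex with ZNF687, ZNF532 and the chromatin reader ZMYND8. Its levels were 41.6 and 37.9 CPM in the controls and 28.2 and 26.3 CPM with creatine. The groups were well apart, the log2 fold change was -0.54 ± 0.10 (SE; adjusted p = 0.000946), and it was -0.40 with the offset (adjusted p = 0.0235). The call of ZNF592 with the offset was lost without control library 1 (-0.36) or creatine library 2 (-0.35). ZNF316, a KRAB gene, had 83.6 and 93.0 CPM in the controls and 86.1 and 90.0 CPM with creatine, which overlap. Its log2 fold change of -0.00 became 0.32 with the offset (adjusted p = 0.0126), so its direction depended on that offset.

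**Figure D3:**
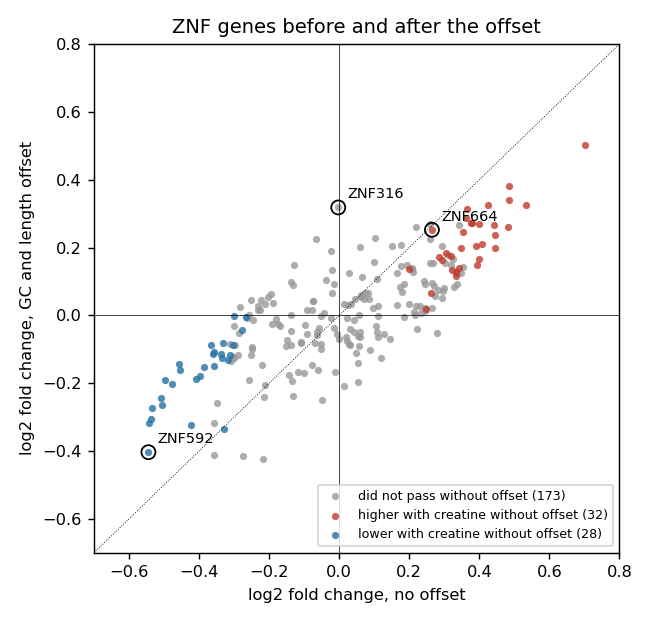
Log2 fold change of each of the 233 ZNF genes without (horizontal axis) and with (vertical axis) the offset for GC content and gene length; the dotted diagonal marks equal values. Points in red and blue passed the test without the offset, the 3 circled genes passed with it, and most coloured points lie nearer to 0 with the offset.

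The 8 members with the highest log2 fold changes among those that rose were, in order, ZNF595, ZNF721, ZNF41, ZNF568, ZNF518A, ZNF267, ZNF480 and ZNF614. All but ZNF518A carry a KRAB box, and all 8 have transcripts of 36.0% to 44.4% GC. ZNF595 had 9.80 and 10.7 CPM in the controls and 12.6 and 20.7 CPM with creatine. The groups did not overlap, but creatine library 2 stood far above library 1. Its log2 fold change was 0.70 ± 0.17 (SE; adjusted p = 0.00608), and it was 0.30 without creatine library 2 (adjusted p = 0.318). ZNF721, its neighbour near the end of the short arm of chromosome 4, had 14.8 and 12.5 CPM in the controls and 18.4 and 21.2 CPM with creatine, again without overlap. Its log2 fold change was 0.53 ± 0.13 (adjusted p = 0.00634), and 0.42 without creatine library 2 (adjusted p = 0.0765). ZNF721 and ZNF595 shared 13.2% and 16.5% of their 31-base windows with transcripts of other genes.

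ZNF518A, listed here among the partners of chromatin complexes, was the most even of the 8, with 30.4 and 30.03 CPM in the controls and 42.2 and 42.1 CPM with creatine. Its log2 fold change was 0.48 ± 0.09 (SE; adjusted p = 0.00147), and it passed whichever library was left out. ZNF41, an X-linked KRAB gene, had 11.1 and 11.7 CPM in the controls against 15.6 and 16.3 CPM with creatine, and ZNF568, whose mouse counterpart silences a placental transcript of Igf2, had 15.7 and 12.7 against 17.9 and 22.0 CPM. Neither overlapped between groups, and both had a log2 fold change of 0.48. The call of ZNF41 did not pass without creatine library 2 (adjusted p = 0.0743), nor did that of ZNF568 without control library 2 (0.32, adjusted p = 0.113) or creatine library 2 (0.32, adjusted p = 0.203).

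ZNF267 had 14.7 and 15.3 CPM in the controls and 21.7 and 19.0 CPM with creatine, ZNF480 12.5 and 14.9 CPM against 18.9 and 18.4 CPM, and ZNF614 8.86 and 9.01 CPM against 13.2 and 11.03 CPM. None of them overlapped between groups, and each had a log2 fold change of 0.44. Without creatine library 1 the adjusted p was 0.188 for ZNF267, 0.0942 for ZNF480 and 0.371 for ZNF614. It was 0.15 for ZNF480 and 0.0874 for ZNF614 without control library 1, and 0.0648 for ZNF614 without control library 2.

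**Figure D4:**
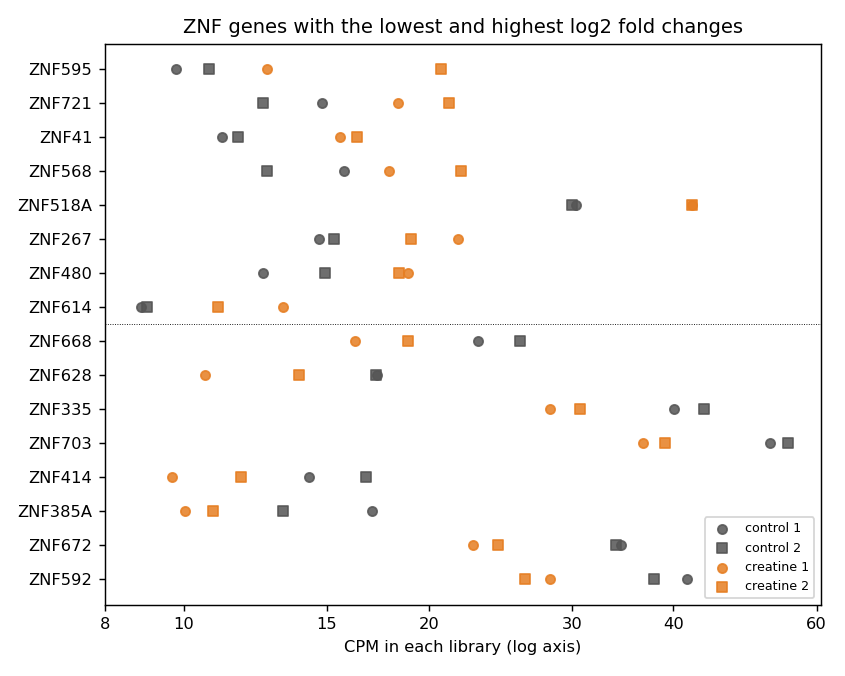
CPM in each library (horizontal log axis) for the 8 ZNF genes with the highest log2 fold changes past the threshold (above the dotted line) and the 8 with the lowest (below it). Controls are grey and creatine libraries orange, with circles for replicate 1 and squares for replicate 2; no gene overlaps between the groups, and ZNF595 has the widest creatine pair, at 12.6 and 20.7 CPM.

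The 8 members with the lowest log2 fold changes among those that fell were ZNF592, ZNF672, ZNF385A, ZNF414, ZNF703, ZNF335, ZNF628 and ZNF668. None carries a KRAB box, and 7 of the 8 have transcripts of 58.8% to 70.8% GC, the exception being ZNF592 at 52.8%. ZNF672 had 34.5 and 34.0 CPM in the controls and 22.7 and 24.3 CPM with creatine, a log2 fold change of -0.54 ± 0.10 (SE; adjusted p = 0.0011). ZNF703, a corepressor amplified in luminal breast cancers, had 52.5 and 55.4 CPM against 36.7 and 39.1 CPM, a change of -0.51 ± 0.09 (adjusted p = 0.00073). ZNF335, a subunit of H3K4 methyltransferase complexes that is mutated in inherited microcephaly, had 40.003 and 43.6 CPM against 28.2 and 30.7 CPM, a change of -0.51 ± 0.10 (adjusted p = 0.00135). In all 3 genes the groups were far apart compared with the gap between replicates, and each passed whichever library was left out.

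The other members of this group of 8 were expressed at lower levels and were less steady. ZNF385A (HZF), a partner of p53 that also binds messenger RNA, had 17.0 and 13.2 CPM in the controls and 10.02 and 10.9 CPM with creatine, a log2 fold change of -0.54 ± 0.14 (SE; adjusted p = 0.0112). Its controls differed from each other by more than its lower control differed from creatine library 2. The change was -0.34 without control library 1 (adjusted p = 0.174). ZNF414 had 14.3 and 16.8 CPM in the controls against 9.68 and 11.8 CPM with creatine, ZNF628 had 17.3 and 17.2 CPM against 10.6 and 13.8 CPM, and ZNF668, which takes part in the DNA damage response, had 23.0 and 25.9 CPM against 16.2 and 18.9 CPM. Their log2 fold changes were -0.53, -0.50 and -0.48, all without overlap. Without creatine library 1 these were -0.40 (adjusted p = 0.146), -0.32 (adjusted p = 0.251) and -0.38 (adjusted p = 0.105), and ZNF385A had an adjusted p of 0.0715. ZNF414 also missed the threshold without control library 2 (adjusted p = 0.0534).

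Levels per kilobase of gene length differed more between members than any change with treatment. The median over the members was 4.43 RPKM (CPM per kilobase) and the range 0.731 to 110, with a median of 3.84 RPKM over all genes tested. ZNF622, which acts in the late assembly of the large ribosomal subunit, stood first at 110 RPKM. It had 188 and 194 CPM in the controls and 185 and 181 CPM with creatine, a log2 fold change of -0.06 ± 0.07 (SE; adjusted p = 0.566), and its groups were separated by little. The 4 next were ZNF697 at 40.6 RPKM, ZNF768 at 40.2 RPKM, ZNF146 (OZF, a protein made almost wholly of fingers) at 36.1 RPKM and ZNF330 (NOA36, a nucleolar protein) at 33.7 RPKM. The order within these 4 is close, and ZNF697 and ZNF768 differed by less than 1 RPKM.

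Among these most expressed members, ZNF146 rose from 133 and 132 CPM to 165 and 169 CPM, a log2 fold change of 0.33 ± 0.07 (SE; adjusted p = 0.0019) that passed whichever library was left out. ZNF330 rose from 71.7 and 82.0 CPM to 92.4 and 95.7 CPM (0.29, adjusted p = 0.0119), but not without control library 1 (0.20, adjusted p = 0.109) or creatine library 2 (adjusted p = 0.0912). ZNF768 fell from 103 and 110 CPM to 81.0 and 90.7 CPM (-0.31, adjusted p = 0.00674), and did not pass without creatine library 1 (-0.23, adjusted p = 0.154). ZNF697 had 203 and 192 CPM in the controls and 212 and 211 CPM with creatine, a log2 fold change of 0.10 ± 0.07 (adjusted p = 0.322). ZNF146 and ZNF330 are in the lower part of the GC range, at 40.9% and 45.6%, and ZNF768 is in the upper, at 62.4%.

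A KRAB box was found in 114 members and not in 115, and 4 had no coding sequence in the annotation. Of the KRAB members 17 rose and 7 fell, with a median log2 fold change of 0.11, and of the others 14 rose and 21 fell, with a median of -0.12. These are 14.9% and 6.14% of the KRAB members and 12.2% and 18.3% of the others. Among genes that reached 10 CPM 14.5% rose and 16.5% fell, and among all genes tested 9.15% and 10.5%. KRAB members were also poorer in GC, with a median of 45.03% against 51.3%. Within GC classes the medians came closer. Under 45% GC they were 0.27 with a KRAB box and 0.26 without, between 45% and 55% they were 0.03 and -0.08, and from 55% they were -0.27 and -0.30. With the GC and length offset the medians over all GC classes were 0.03 and -0.01. A narrower KRAB pattern, used first and widened after its split had been seen because it missed the known KRAB genes ZNF568 and ZNF84, gave 94 members with 12 higher and 6 lower and 135 without, with 19 higher and 22 lower. The members had a median of 10 fingers, from 0 in ZNF185, ZNF330, ZNF365, ZNF503, ZNF703 and ZNF839 by the pattern used to 36 in ZNF208.

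The list of KRAB proteins known to bind retroelements held 3 expressed members. ZNF91, which represses SVA and some LINE-1 elements, had 10.8 and 12.8 CPM in the controls and 13.5 and 13.9 CPM with creatine, a log2 fold change of 0.22 ± 0.14 (SE; adjusted p = 0.301). ZNF587 and ZNF417, a closely related pair that bind human endogenous retroviruses of the K family, had log2 fold changes of 0.09 ± 0.09 (adjusted p = 0.578) and -0.11 ± 0.15 (adjusted p = 0.684), and both overlapped between groups. They shared 31.7% and 43.6% of their 31-base windows with other genes' transcripts, so their counts are uncertain. None of the 3 passed, by edgeR, DESeq2 or limma-voom, and 0 rose at an unadjusted p under 0.05. ZNF274, a KRAB protein that brings SETDB1 to the ends of other zinc finger genes, had 82.8 and 76.9 CPM in the controls and 75.9 and 81.5 CPM with creatine, which overlap, and a log2 fold change of -0.02 ± 0.08 (adjusted p = 0.9).

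Among 15 members listed as partners of chromatin complexes, 1 rose and 5 fell, with a median log2 fold change of -0.02. Among all genes tested 9.15% rose and 10.5% fell, and among those that reached 10 CPM 14.5% and 16.5%. With the GC and length offset 0 of the 15 rose and 1, ZNF592, fell. ZNF518A was the one that rose. ZNF592, ZNF335, ZNF219, ZNF687 and ZNF512B fell, and these 5 have 52.8% to 63.9% GC. ZNF687, which sits in the same complex as ZNF592, had 41.5 and 38.2 CPM in the controls and 32.4 and 29.8 CPM with creatine, without overlap (-0.36, adjusted p = 0.0118). It did not pass without control library 1 (-0.30, adjusted p = 0.065) or creatine library 2 (-0.31, adjusted p = 0.108). ZNF512B, which binds the NuRD deacetylase complex, had 47.6 and 50.9 CPM against 36.4 and 40.1 CPM (-0.37, adjusted p = 0.00792), and ZNF219 had 37.3 and 34.7 CPM against 23.1 and 29.5 CPM (-0.45, adjusted p = 0.00674). Without creatine library 1 these were -0.30 (adjusted p = 0.123) and -0.29 (adjusted p = 0.175). ZNF217, a partner of the CoREST complex that is amplified in several carcinomas, had a log2 fold change of 0.03 ± 0.08 (SE; adjusted p = 0.847) with overlapping groups, and its sign changed with the GC and length offset (-0.09).

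Of 12 members that act on RNA, ribosomes or the spindle, 1 rose and 2 fell, with a median log2 fold change of 0.04. These are 8.33% and 16.7% of the 12, near the 14.5% and 16.5% of genes that reached 10 CPM. Among all genes tested 9.15% rose and 10.5% fell. With the GC and length offset 0 of the 12 rose and 0 fell. ZNF638, a nuclear RNA-binding protein, had 56.1 and 60.6 CPM in the controls and 75.9 and 71.9 CPM with creatine, without overlap (0.34, adjusted p = 0.00555), and did not pass without creatine library 1 (0.30, adjusted p = 0.0801). ZNF598, the ubiquitin ligase that marks collided ribosomes, had 163 and 173 CPM against 118 and 155 CPM. Creatine library 1 lay well under library 2, the log2 fold change was -0.30 ± 0.09 (SE; adjusted p = 0.0198), and without creatine library 1 it was -0.12 (adjusted p = 0.518). ZNF385A, described above, was the other that fell, and missed the threshold without control library 1 (adjusted p = 0.174) or creatine library 1 (adjusted p = 0.0715). ZNF207 (BuGZ), a spindle assembly factor that loads BUB3 onto kinetochores, had 300.3 and 272 CPM in the controls and 300.5 and 308 CPM with creatine. Its groups were separated by a fraction of 1 CPM, the log2 fold change was 0.09 ± 0.07 (adjusted p = 0.4), and the sign changed with the GC and length offset (-0.10).

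Of 13 members listed as regulators of transcription, 2 rose and 2 fell, with a median log2 fold change of -0.07. These are 15.4% and 15.4% of the 13, near the 14.5% and 16.5% of genes that reached 10 CPM. Among all genes tested 9.15% rose and 10.5% fell. With the GC and length offset 0 of the 13 rose and 0 fell. ZNF148 (ZBP-89) had 72.5 and 69.1 CPM in the controls and 84.998 and 84.7 CPM with creatine, and ZNF24, a SCAN-domain protein, 62.4 and 62.7 CPM against 75.6 and 72.7 CPM. Neither overlapped, and the log2 fold changes were 0.26 (adjusted p = 0.0174) and 0.25 (adjusted p = 0.0289). ZNF24 missed the threshold whichever library was left out, with adjusted p from 0.0522 without control library 2 to 0.235 without creatine library 1, and ZNF148 missed it without control library 2 (0.0717), creatine library 1 (0.124) or creatine library 2 (0.103). ZNF746 (PARIS), a repressor that is a substrate of parkin, fell from 33.7 and 35.7 CPM to 25.6 and 29.3 CPM (-0.34, adjusted p = 0.0232), and not without control library 2 (adjusted p = 0.0575) or creatine library 1 (-0.24, adjusted p = 0.281). The other that fell was ZNF703, described above as a corepressor, in which the pattern used found no finger. ZNF143, an activator that binds many promoters, had 26.1 and 27.7 CPM in the controls and 27.1 and 27.4 CPM with creatine, which overlap (0.02, adjusted p = 0.93), and its sign changed with the GC and length offset (-0.06).

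Chromosome 19 held 93 of the 233, of which 8 rose and 7 fell. These are 8.60% and 7.53% of the 93, where 9.15% of all genes tested rose and 10.5% fell, and 14.5% and 16.5% of those that reached 10 CPM. Joining members whose starts lay within 500 kb gave 10 clusters of at least 4 members. For comparison, of genes that reached 10 CPM 33.7% rose under 45% GC and 45.3% fell from 55% GC. At chr19:36214602-37248738, from ZNF146 to ZNF383, 2 of 11 members rose and none fell, with a median log2 fold change of 0.24 at a median GC content of 42.1%. At chr19:55476332-56379828, from ZNF628 to ZNF542P, 3 of 9 fell and none rose, with a median of -0.28 at 65.4% GC. None of these 9 carried a KRAB box. ZNF865, of which a finger is printed above, and ZNF580, whose exons overlap those of ZNF581, fell beside ZNF628. The 3 calls were lost without creatine library 1, with -0.32 for ZNF865 (adjusted p = 0.114), -0.25 for ZNF580 (adjusted p = 0.248) and -0.32 for ZNF628 (adjusted p = 0.251). ZNF580 was also lost without control library 2 (-0.25, adjusted p = 0.134).

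The cluster nearest the end of the long arm of chromosome 19, at chr19:57191500-58481230, was the largest, with 28 members of which 25 carried a KRAB box. It had 0 that rose (2 at an unadjusted p under 0.05 by edgeR, and 0 by DESeq2 or limma-voom), 2 that fell and a median log2 fold change of 0.02 at 47.8% GC. Among genes that reached 10 CPM, 33.7% rose under 45% GC, 5.33% rose and 10.3% fell between 45% and 55%, and 45.3% fell from 55%. On chromosome 16, 5 of 8 members between ZNF48 and ZNF646 fell (chr16:30378106-31084196, median -0.31, 59.9% GC). On chromosome 12, ZNF84 and ZNF268 rose among 4 KRAB members at the end of the long arm (chr12:132918308-133214831, median 0.31, 42.6% GC). ZNF84 had 27.1 and 28.2 CPM in the controls and 37.2 and 35.3 CPM with creatine (0.39, adjusted p = 0.00786), and missed the threshold without creatine library 1 (adjusted p = 0.0917). ZNF268 had 26.4 and 28.6 CPM against 35.5 and 35.9 CPM (0.38, adjusted p = 0.00998), and missed it without control library 1 (0.0556), creatine library 1 (0.0566) or creatine library 2 (0.0542). The order of the cluster medians was close to the reverse order of their GC contents.

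**Figure D5:**
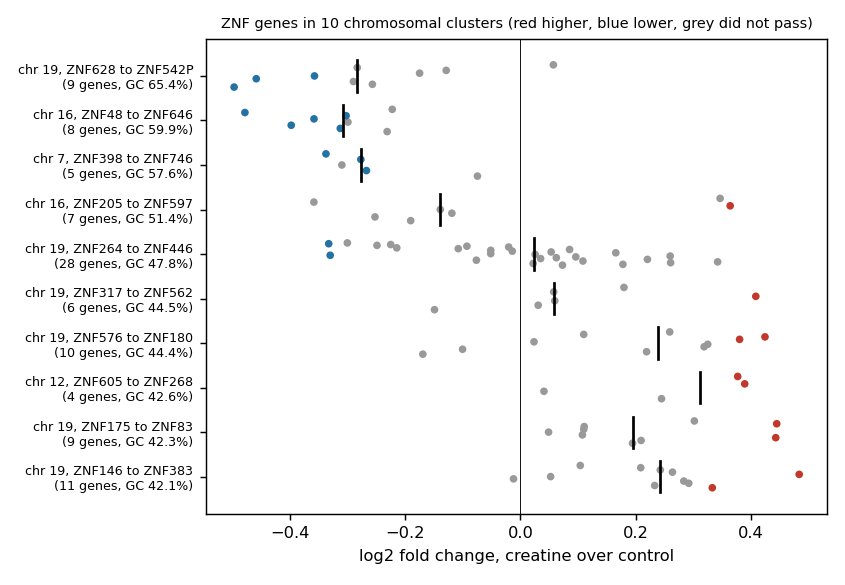
Log2 fold change, creatine over control, of the ZNF genes in 10 chromosomal clusters of at least 4 expressed members, ordered by median GC content from 65.4% (top) to 42.1% (bottom). Points are genes, spread vertically in order of their starts on the chromosome, with red higher, blue lower and grey not past the threshold, and black bars are cluster medians; blue points are in clusters at the top and red points mainly in those at the bottom.

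Promoters of 203 members were found in the RefSeq table (GRCh38.p14), from 250 bases before to 50 bases after the start. The 7-letter motif CCGGAAG, a core bound by ETS factors, was present on either strand in 91 of them, 44.8%. It was present in 10.7% of all 27305 promoters and in 22.2% of the 7519 promoters of genes tested that reached 10 CPM. It did not divide the members by direction, being found in 12 of 27 that rose, 11 of 23 that fell and 68 of 153 that did not pass. ACTACAATT, a motif of ZNF143, was found in 6 of the 203 members (2.96%), in 0.370% of all promoters and in 0.692% of those of genes that reached 10 CPM. AAGATGGC, a YY1 motif, was in 6.40% of the members and 6.48% of promoters of genes at 10 CPM, GCATGCGC, bound by NRF1, in 7.88% and 6.28%, and TGACGTCA, the cyclic AMP response element, in 4.93% and 3.62%. Motifs can share bases at their ends, as CCGGAAG and AAGATGGC can share AAG, and a match is a description of letters only.

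Transcripts of the proteins through which KRAB members act were called in both directions. Of 29 genes listed as TRIM28, SETDB1, HP1, HUSH and partners, 27 were tested, 6 rose and 7 fell, with a median log2 fold change of 0.06. These are 22.2% and 25.9% of the 27, where 9.15% of all genes tested rose and 10.5% fell, and 14.5% and 16.5% of those that reached 10 CPM. TRIM28, the KRAB-binding scaffold, had 699 and 729 CPM in the controls and 558 and 572 CPM with creatine, without overlap (-0.34 ± 0.06 SE, adjusted p = 0.000941). DNMT1, the maintenance DNA methyltransferase, changed by -0.34 (adjusted p = 0.00105), UHRF1, which guides it to replicated DNA, by -0.46 (adjusted p = 0.0014), and the H3K9 methyltransferase EHMT2 (G9a) by -0.45 (adjusted p = 0.00187). SUV39H1, another H3K9 methyltransferase and named here after its value was seen, changed most, from 10.7 and 10.3 CPM to 6.61 and 5.70 CPM (-0.77 ± 0.16, adjusted p = 0.00221). UHRF1 missed the threshold without creatine library 1 (-0.31, adjusted p = 0.0544).

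Those that rose included ATRX, a chromatin remodeller at repeats, from 36.2 and 36.7 CPM to 51.8 and 48.9 CPM (0.47 ± 0.09 SE, adjusted p = 0.00135), the HP1 protein CBX3 (0.30, adjusted p = 0.0038), the remodeller SMARCAD1 (0.34, adjusted p = 0.00862) and the deacetylase HDAC2 (0.25, adjusted p = 0.0127). HDAC2 missed the threshold without control library 1 (0.0736), creatine library 1 (0.0554) or creatine library 2 (0.119), and SMARCAD1 without creatine library 1 (0.0576) or creatine library 2 (0.0568). SETDB1, the methyltransferase that TRIM28 recruits and also named after its value was seen, had 24.1 and 25.3 CPM in the controls and 30.2 and 27.4 CPM with creatine, without overlap (0.22 ± 0.10, adjusted p = 0.139). The genes that fell were rich in GC and those that rose poor, with 60.9% in TRIM28 and 37.1% in ATRX. With the GC and length offset 0 of the 27 fell (4 at an unadjusted p under 0.05 by edgeR).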

How the data were processed

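Total RNA of 2 libraries per group was prepared with TruSeq reagents, per the labels' protocols. Reads were handled with FastQC 0.11.9, HISAT2 2.2.1 and featureCounts on GRCh38, with DESeq2 also listed, per the submitters' processing notes. Not given in the sources used here are the annotation release, the strand setting and how multiply mapping reads were counted, so overlapping genes or close copies may have shared reads. Exons of 119 of the 233 members overlapped those of another gene in GENCODE 29, and 7 members shared over 20% of their 31-base windows with other genes' transcripts; 0 of these 7 passed the test.

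The authors deposited raw read counts for each gene symbol, with a gene length. They were analysed in R 4.3.3 with edgeR 4.0.16, using filterByExpr (15302 genes), TMM factors, a quasi-likelihood model of group alone (2 residual degrees of freedom, a median of 22.9 after sharing across genes) and Benjamini-Hochberg adjustment over all genes tested, threshold 0.05. CPM values are scaled by TMM, except those of the member rule. Total counts were 59860043 and 49207427 (control 1 and 2) and 51073738 and 48249693 (creatine 1 and 2). A count of 0 allows up to 3 counts, 0.0501 to 0.0622 CPM; floors cover counting error only. The smallest p of an exact permutation test here is 0.333, so none was used. The procedure was tested on simulated counts.

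The repeated fits used other filters, scalings, DESeq2 1.42.0, limma-voom (limma 3.58.1), robust edgeR, a replicate block, each library left out, and offsets from smooth trends of each library on transcript GC content, alone or with log2 gene length, by mgcv 1.9.3. Genes without a GC value, 23, were given the median. Coordinates, GC content, fingers and KRAB boxes came from GENCODE 29 (GRCh38), the latter 2 by patterns in translated coding sequences.

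The members and gene lists were chosen with earlier results of these data known. Named were the 8 highest and 8 lowest changes past the threshold without overlap, members passing with the GC and length offset, the 5 with most reads per kilobase, members of 4 role lists, the 3 on each side of the minimum, and up to 4 corepressor genes a direction. Not every member of the role lists is given its values, and 1 gene that passed is not reported here. Any other gene named was chosen after its value was seen. So were the wider KRAB pattern, the 500 kb and 20% limits, the printed sequences and the promoters of genes at 10 CPM used for comparison.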

Additional observations from a re-analysis of the deposited data

How the results depend on the processing

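The counts of members that rose and fell (32 and 28) stayed within 1.5 times under other filters, scalings, DESeq2, limma-voom, robust edgeR, the replicate block (44 and 36) and minimums of 5 CPM (319 members, 34 and 30) or 20 CPM (137 members, 23 and 23). The labels do not say whether same-numbered libraries were prepared together. Deviations of same-numbered libraries had a correlation of -0.023 over 15302 genes. With 2 libraries a group this single value cannot settle whether they are paired. The block raised calls over all genes from 3001 to 3795. Offsets changed the counts most. With the GC and length offset, GC alone, and the block with the GC and length offset, members that rose numbered 2, 0 and 4, members that fell 1, 1 and 3, all genes called 363, 316 and 681, corepressor genes that rose 1, 0 and 1, and those that fell 0, 0 and 2. The median log2 fold change of the members was -0.016 with GC alone. With GC alone, 16 members rose at an unadjusted p under 0.05 by edgeR, and 3 corepressor genes rose and 6 fell. The offset is built to remove any change that follows GC content. Leaving out each library, with and without the offset, gave 0 to 30 members that rose, 0 to 26 that fell, medians of -0.0069 to 0.055, 212 to 3116 genes called, and 0 to 6 corepressor genes that rose and 0 to 8 that fell.

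Of the 63 members named by rule, 10 changed sign with the GC and length offset, 17 with GC alone, 10 with the block and offset, 2 with upper-quartile scaling and 1 with limma-voom. Over all 233 members these numbers were 54, 59, 53, 6 and 1, and of the 60 that passed, 1 changed sign in these 5 fits, with GC alone. With the offset and a library left out, 1 to 4 of the 60 did. Values are given here for genes whose fold change the text prints. With the GC and length offset, GC alone, and the block with the offset, the log2 fold change was -0.064, -0.083 and -0.064 for ZNF143, -0.10, -0.16 and -0.10 for ZNF207, -0.088, -0.12 and -0.089 for ZNF217, -0.21, -0.25 and -0.21 for ZNF254, 0.13, 0.077 and 0.13 for ZNF274, and 0.32, 0.25 and 0.32 for ZNF316. With GC alone it was -0.018 for ZNF24, -0.0016 for ZNF587, 0.030 for ZNF622 and -0.037 for ZNF91. ZNF316 had 0.015 with upper-quartile scaling and 0.0014 with limma-voom. ZNF598 missed the threshold with robust edgeR (adjusted p = 0.0617). Among fits that leave out a library, signs changed for HDAC2 (-0.038 to 0.31), ZNF143 (-0.12 to 0.048), ZNF207 (-0.15 to 0.16), ZNF217 (-0.16 to 0.099), ZNF24 (-0.0021 to 0.27), ZNF254 (-0.26 to 0.13), ZNF274 (-0.086 to 0.17), ZNF316 (-0.079 to 0.38), ZNF417 (-0.27 to 0.095), ZNF587 (-0.035 to 0.19), ZNF598 (-0.51 to 0.14) and ZNF91 (-0.14 to 0.33). The cause of these changes was not tested. A fit without 1 library leaves a single sample in its group, which is assumed to vary like the other group.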

Other observations

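A list of genes that host small nucleolar RNAs or give other nuclear RNAs was also examined. Of 11 such genes tested, 5 rose, namely GAS5, SNHG1, SNHG8, SNHG15 and ZFAS1, and 0 fell, by edgeR at either an adjusted or an unadjusted p under 0.05 and by DESeq2 or limma-voom. Among all genes tested 9.15% rose and 10.5% fell, and among those that reached 10 CPM 14.5% and 16.5%. The log2 fold changes of those that did not pass were 0.24 (SNHG12), 0.16 (TUG1), 0.39 (MALAT1), 0.30 (RN7SK), -0.05 (NEAT1) and -0.23 (KCNQ1OT1). Mean control levels were low for MALAT1 (2.53 CPM), RN7SK (0.508 CPM), NEAT1 (3.04 CPM) and KCNQ1OT1 (2.98 CPM). With the GC and length offset the same 5 rose, where 1.29% of all genes tested rose and 1.08% fell. Their list summed to 1195 and 1337 CPM in the controls and 1672 and 1683 CPM with creatine, without overlap. ZFAS1 had a log2 fold change of 0.60 and GAS5 one of 0.46 (edgeR adjusted p = 4.93e-05 and 0.000856).

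Of 27 ZBTB genes at 10 CPM or more, 2 rose and 3 fell, of 5 ZFP genes 1 rose and 0 fell (2 at an unadjusted p under 0.05, 0 by DESeq2 and 1 by limma-voom), and of 12 ZSCAN and ZKSCAN genes 0 passed in either direction by edgeR, DESeq2 or limma-voom (1 rose and 0 fell at an unadjusted p under 0.05). Among all genes tested at 10 CPM or more, 14.5% rose and 16.5% fell. These families were chosen after the ZNF values were seen. Of the 220 ZNF genes under 10 CPM that were tested, 4 rose (1.82%) and 2 fell (0.909%), with a median log2 fold change of 0.12, and with the offset 0.01. Calls were rare among all tested genes under 10 CPM. Of the 1400 genes that rose 1317 reached 10 CPM, and of the 1601 that fell 1501 did, where 9098 of the 15302 genes tested reached it.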
